A study of Oryza sativa Japonica Group with 12 samples.

Results

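Chlorophyll synthesis enzyme genes are the subject here, measured by microarray in rice (Oryza sativa Japonica Group) leaves. They were chosen by name, as the probe sets of every gene whose symbol or synonym, with a leading Os ignored, was CHLH, CHLI, CHLD, CHLM, CHLG, PORA, PORB, PPOX1, DVR or CAO1. Of the 10 listed genes, 7 were measured, by 8 of the 57381 probe sets in the table, and all 8 passed the filter on low signal. CHLM, DVR and CAO1 were not analysed here. A gene is represented by its probe set with the highest mean signal. The other CHLH probe set is given beside it.

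The study asked which leaf transcripts change when the microRNA miR156 is over-expressed, and it compared this in a young leaf (L6, which emerged later on the main tiller) and an old leaf (L3). The groups were OE_L6 and OE_L3, leaves of miR156 over-expression plants of lines Md15, Md43 and Mh9 (replicates 1, 2 and 3), and WT_L6 and WT_L3, leaves of wild-type plants WT1, WT2 and WT3. Each group had 3 arrays, 12 in all, and both leaves of a replicate carry the same line name in OE or plant name in WT. That the leaves of an OE line came from 1 plant is assumed here. All plants were 45 days old and grown in hydroponic medium. The OE plants alone had been selected on hygromycin, and the 12 arrays include no transgenic line without the over-expression, so these cannot be told apart from miR156 itself. The promoter of the transgene is not given in the sources used here. Leaf age and leaf position change together between L3 and L6. miR156 itself was not analysed here.

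Chlorophyll is built in the plastid on the porphyrin pathway that also feeds haem. Protoporphyrinogen oxidase (PPOX1) makes protoporphyrin IX, and magnesium chelatase, an enzyme of the CHLH, CHLI and CHLD subunits, inserts magnesium and so commits the molecule to chlorophyll. A methyltransferase (CHLM), ring closure and a vinyl reductase (DVR) follow, and the light-driven protochlorophyllide oxidoreductases PORA and PORB then yield chlorophyllide. Chlorophyll synthase (CHLG) adds the lipid tail, and CAO1 converts part of the pigment to the b form. In grasses the pathway is most active while a young leaf greens, and expanding leaves draw on it to fill new thylakoids.

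The values are linear signal per probe set, and differences are on the scale of log2(signal + 16), which understates changes of low signals. A difference was called when its adjusted p was under 0.05 in a limma model over the 34316 probe sets that passed the filter. Array medians lay between 50.8 and 56.5. Replicates of a group correlated at 0.900 to 0.993 across probe sets. On OE_L6 replicate 1 the 18S rRNA control read 117, against 495 to 1024 on the other 11 arrays, and its Dap 3′ over 5′ control was 5.35 on the log2 scale, against 3.20 to 3.70. The ef1a 3′ over 5′ control was lower in L6 than in L3 on every array but OE_L6 replicate 1, at 0.43, −1.26 and −1.58 in OE_L6 and −1.47 to −0.84 in WT_L6, against −0.45 to −0.14 in OE_L3 and −0.56 to −0.47 in WT_L3. Its part in the leaf differences was not tested. The green leaf markers were present, and of the 3 tested 2 were higher and 1 lower in L6 in both genotypes. Of all probe sets tested, 18.9% were higher and 23.2% lower in OE_L6, and 23.9% in each direction in WT_L6. RBCS, the small subunit of Rubisco, read 12532 to 13099 in L6 and 8550 to 11250 in L3, and RCA, Rubisco activase, averaged 4482 in OE_L6 and 3011 in OE_L3, and 4332 in WT_L6 and 2909.5 in WT_L3. CAB2R, a light-harvesting protein, was lower in L6, at 6566 in OE_L6 and 8446 in OE_L3, and 6803 in WT_L6 and 8399.7 in WT_L3. The gene named RBCS1 read 7.03 to 11.7.

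Of the 5 measured markers of undifferentiated shoot, 3 were under the filter level of a signal of 40.9, as was 1 of 2 root markers. None was listed at 0. The shoot markers summed to 241 to 247 in OE_L6, 239.9 to 253 in WT_L6, 184 to 221 in OE_L3 and 197 to 203 in WT_L3, and OSH43 was higher in L6 by 0.43 in OE and 0.53 in WT (limma adjusted p = 0.00218 and 0.000696). The root markers summed to 107 to 147 in OE_L6, 107 to 131 in WT_L6, 197 to 203 in OE_L3 and 213 to 410.1 in WT_L3, and LSI1, a silicon transporter, was lower in L6, with −0.59 in OE and −1.31 in WT (adjusted p = 0.0478 and 0.00113). The part of these markers in the leaf differences of the chlorophyll genes was not tested.

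Between the leaves, 4 of the 7 genes were higher in L6 in both genotypes. Of all probe sets tested, 18.9% were higher in OE_L6 and 23.9% in WT_L6. The 4 genes were PPOX1, CHLD, PORA and CHLG, with differences of 0.57 to 1.16 in OE and 0.48 to 1.11 in WT. The PORA call in OE was at the threshold (limma adjusted p = 0.0495) and was lost in 15 of 22 alternative settings. PORB was lower in WT_L6 than in WT_L3, as was CHLH at its brighter probe set and 23.9% of all probe sets. The other CHLH probe set was higher in L6 in both genotypes. With the plant as a replicate block the brighter CHLH probe set was not called in WT (limma adjusted p = 0.0707). CHLI was not called. No gene was called between OE and WT in either leaf, where 0.102% of all probe sets were called in L6 and 0.119% in L3. The leaves are bulk tissue, in which fewer cells of a type and less RNA per cell cannot be told apart.

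**Figure D1:**
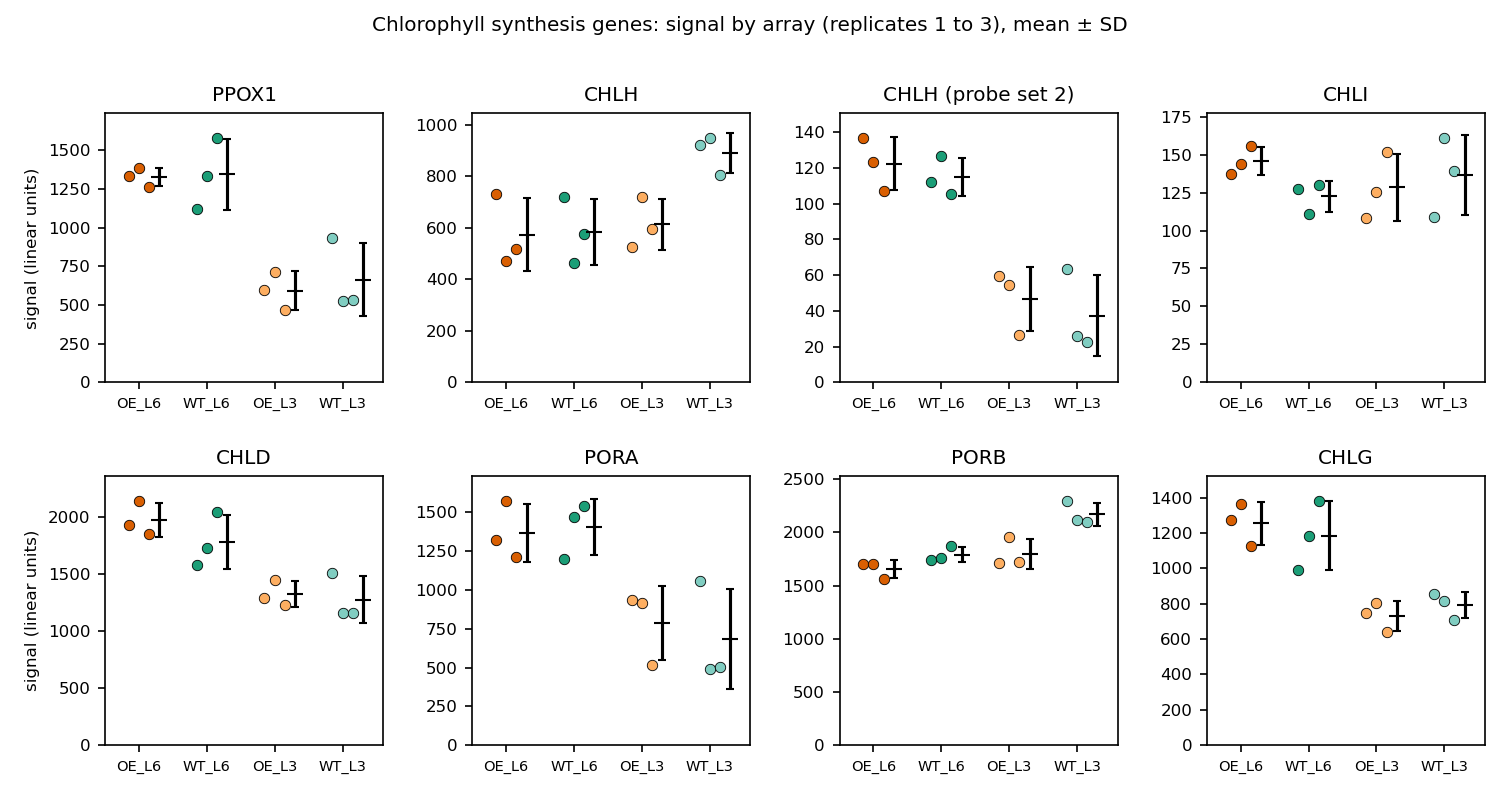
Signal (linear units, axes from 0) of the 8 probe sets on each of the 12 arrays, with replicates 1, 2 and 3 from left to right in each group and the mean ± SD beside them. PPOX1, CHLD, PORA and CHLG sit higher in L6, CHLI spans 108 to 161 over all arrays, and the CHLH probe sets run in opposite directions.

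PPOX1, the last step that chlorophyll shares with haem, had signals of 1332, 1385 and 1266 in OE_L6 and 599, 715 and 466 in OE_L3. In WT it had 1123, 1337 and 1582 in L6 and 935, 525 and 534 in L3. Every L6 array was above every L3 array, and WT_L3 replicate 1 was the highest of the L3 arrays. The L6 minus L3 difference was 1.16 ± 0.23 (SE, n = 3 arrays each) in OE and 1.04 ± 0.23 in WT (limma adjusted p = 0.00328 and 0.00489), or 2.24-fold and 2.06-fold. Within plants it was 0.94 to 1.41 in OE and 0.26 to 1.54 in WT, positive in 6 of 6. OE minus WT was −0.0077 in L6 (95% interval −0.51 to 0.49) and −0.13 in L3 (−0.63 to 0.37).

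Of the 3 subunits of magnesium chelatase, only CHLD was called higher in L6 at its brightest probe set. CHLI was not called, and the direction of CHLH depended on the probe set. CHLD, which forms a ring complex with CHLI, read 1935, 2147 and 1855 in OE_L6 and 1292, 1453 and 1229.5 in OE_L3. In WT it read 1583, 1735 and 2045 in L6 and 1516, 1162 and 1157 in L3. The leaves did not overlap in either genotype, and WT_L3 replicate 1 was the highest of the 6 L3 arrays. The difference was 0.57 ± 0.13 in OE and 0.48 ± 0.13 in WT (SE, limma adjusted p = 0.00685 and 0.013), and all 6 plants had it positive, WT1 by 0.06. The WT call was lost without WT_L3 replicate 2, WT_L3 replicate 3 or WT_L6 replicate 3, with adjusted p of 0.0547, 0.0572 and 0.0503.

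CHLI, the ATP-hydrolysing motor subunit, read 137, 144 and 156 in OE_L6, 127, 111 and 129.7 in WT_L6, 108, 125 and 152 in OE_L3 and 109, 161 and 139 in WT_L3. The L3 arrays covered the whole range of the L6 arrays. The leaf difference was 0.17 (95% interval −0.14 to 0.49) in OE and −0.13 (−0.44 to 0.19) in WT, with limma adjusted p of 0.344 and 0.491. In L6 the OE arrays all lay above the WT arrays, as for 5.92% of all probe sets, by 0.22 (−0.092 to 0.54, limma adjusted p = 0.729).

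CHLH, the large subunit that binds the porphyrin, has 2 probe sets that gave opposite leaf differences. The brighter read 732, 469 and 518 in OE_L6 and 524, 719 and 596 in OE_L3, groups that overlap. In WT it read 717, 462 and 573 in L6 and 919, 948 and 802 in L3, where every L3 array was the higher. Its leaf difference was −0.11 ± 0.20 in OE (SE, limma adjusted p = 0.676) and −0.61 ± 0.20 in WT (adjusted p = 0.0267, 1.53-fold lower in L6). With the plant as a replicate block the WT adjusted p was 0.0707, and it lay between 0.0141 and 0.103 when each array was left out, with the call lost when replicate 1 or 2 of WT_L3, or 2 or 3 of WT_L6, was left out.

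The dimmer CHLH probe set read 137, 123 and 107 in OE_L6 and 59.3, 54.6 and 26.3 in OE_L3. In WT it read 112, 127 and 106 in L6 and 63.3, 26.1 and 22.4 in L3. Every L6 array was the higher, by 1.18 ± 0.28 in OE and 1.37 ± 0.28 in WT (SE, limma adjusted p = 0.00814 and 0.00339). Its name ends in _s_at, which on Affymetrix arrays marks probes shared by more than a single transcript, and 3 of its L3 signals lie under the filter level. The direction of CHLH between the leaves therefore depends on the probe set.

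PORA and PORB, related enzymes that carry out the same light-driven reduction, were called in opposite directions in WT alone. In OE only PORA was called. PORA, in barley and Arabidopsis the form abundant in dark-grown seedlings, read 1323, 1574 and 1209 in OE_L6 and 934, 915 and 516 in OE_L3. In WT it read 1201, 1469.6 and 1543 in L6 and 1058, 488 and 505 in L3. L6 arrays lay above L3 arrays throughout, and the L3 arrays split, with OE_L3 replicates 1 and 2 and WT_L3 replicate 1 at 915 to 1058 and the other 3 at 488 to 516. The leaf difference was 0.82 ± 0.30 in OE (SE, limma adjusted p = 0.0495) and 1.11 ± 0.30 in WT (adjusted p = 0.0138). The OE call is at the threshold. It was lost with the plant as a replicate block (adjusted p = 0.0731) and without any 1 array of OE_L6, WT_L6 or OE_L3, or without WT_L3 replicate 3 (0.0502 to 0.183). Leaving out WT_L3 replicate 2 or replicate 3 gave a WT adjusted p of 0.0590 or 0.0594. All 6 plants had PORA higher in L6, by 0.18 to 1.58.

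PORB, in barley and Arabidopsis the form also kept in green leaves, read 1704, 1705 and 1558 in OE_L6 and 1709, 1957 and 1726 in OE_L3. In WT it read 1745, 1759 and 1875 in L6 and 2298, 2114 and 2099 in L3. WT_L3 was the highest group, and none of its arrays overlapped another group. The leaf difference was −0.12 ± 0.076 in OE (SE, limma adjusted p = 0.236) and −0.27 ± 0.076 in WT (adjusted p = 0.0149, 1.21-fold lower in L6). The WT call was lost without WT_L6 replicate 2 (adjusted p = 0.0506). The suffix _x_at marks probes that can match other transcripts.

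CHLG, which joins chlorophyllide to its phytyl or geranylgeranyl tail, read 1271, 1363 and 1125 in OE_L6 and 746, 806 and 638 in OE_L3. In WT it read 990.0, 1182 and 1382 in L6 and 854, 816 and 708 in L3. Every L6 array was above every L3 array. The leaf difference was 0.77 ± 0.14 in OE and 0.56 ± 0.14 in WT (SE, limma adjusted p = 0.00213 and 0.00862), 1.70-fold and 1.48-fold. It was called under all the alternatives run, as was that of PPOX1, in both genotypes.

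By count, 4 genes were higher and 0 lower in OE_L6 than in OE_L3 of the 7, and 4 were higher and 2 lower in WT_L6 than in WT_L3. Over all probe sets tested, 42.1% were called between the leaves in OE and 47.8% in WT, with 18.9% higher and 23.2% lower in OE_L6 and 23.9% in each direction in WT_L6. The median difference of the 7 genes was 0.57 in OE and 0.48 in WT, against 0.0012 and 0.023 over all probe sets tested. With the dimmer CHLH probe set the counts were 5 higher in OE, and 5 higher and 1 lower in WT. With the plant as a replicate block they were 3 higher in OE, and 4 higher and 1 lower in WT. In WT, 2 were higher when WT_L3 replicate 2 or 3 was left out, 0 were lower without WT_L6 replicate 2, and the total was lowest, at 3, without WT_L3 replicate 2.

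**Figure D2:**
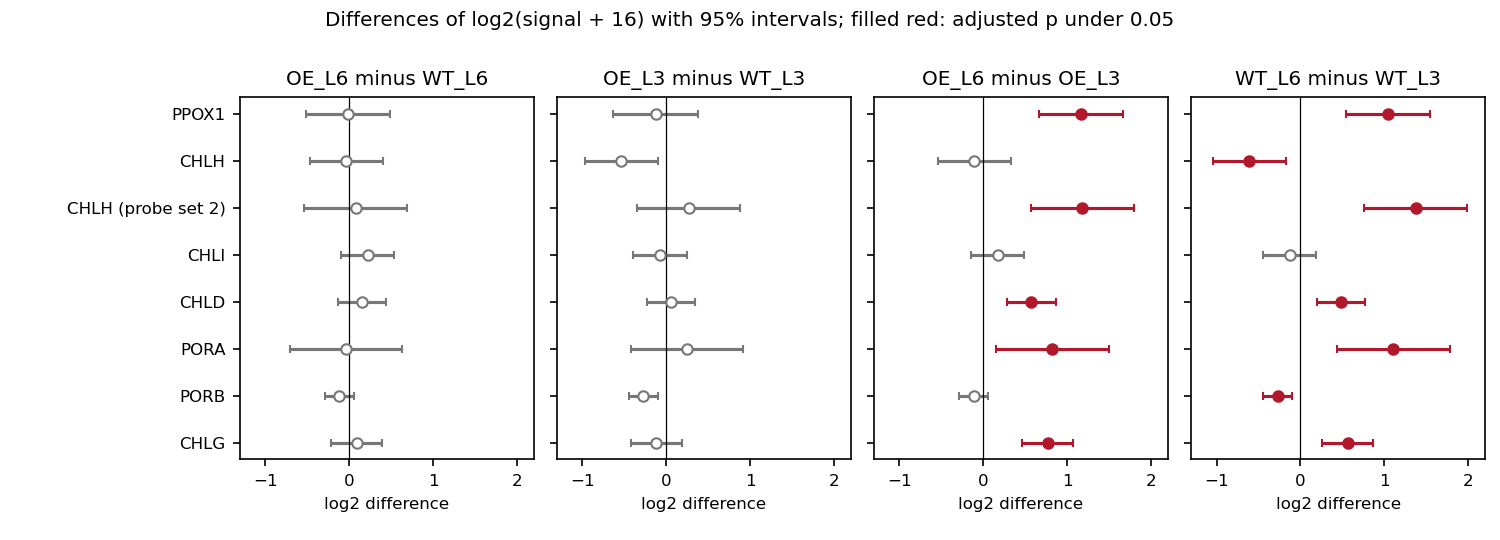
Differences of log2(signal + 16) for the 8 probe sets (rows) in 4 comparisons (panels), as points with 95% intervals, filled red where the limma adjusted p is under 0.05. The OE minus WT panels hold no red point, and in the leaf panels PPOX1, CHLD, PORA, CHLG and the dimmer CHLH probe set lie right of 0 in both genotypes.

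Between OE and WT no difference was called in these genes. Few probe sets were called at all in these comparisons, so 0 of 7 says little about these genes. In L6, 0 of 7 were called by limma, where 0.102% of all probe sets were called. An unadjusted p under 0.05 was found for 0 of 7 and for 2650 of the 34316 probe sets tested. The differences ran between −0.11 for PORB and 0.22 for CHLI, with a median of −0.0077. In L3, 0 of 7 were called against 0.119% of all probe sets. There 1326 of the 34316 probe sets had an unadjusted p under 0.05, and 2 of the 7 had it, CHLH and PORB. Both were lower in OE_L3 with no overlap of the arrays, which 4.07% of all probe sets also were.

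CHLH in L3 averaged 613 ± 98.5 in OE and 889.9 ± 77.2 in WT (SD, n = 3 each), a difference of −0.53 (95% interval −0.97 to −0.10, limma adjusted p = 1). Its dimmer probe set did not show this, with 0.27 (−0.34 to 0.88). PORB in L3 averaged 1797 ± 139 in OE and 2170.3 ± 110.5 in WT, a difference of −0.27 (−0.44 to −0.10, adjusted p = 0.725). PORB was also lower in OE_L6 than in WT_L6 with no overlap, as were 9.27% of all probe sets, with a difference of −0.11 (−0.28 to 0.054). For the other 5 genes the L3 difference lay between −0.13 and 0.25. These are differences that did not pass the adjustment over all probe sets.

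The interaction, the leaf difference in OE minus that in WT, was called for 0 of the 7 genes by limma, and for 0.00874% of all probe sets. None of the 7 had an unadjusted p under 0.05, and 844 of the 34316 probe sets tested did. At so small a share, 0 of 7 says little about these genes. The interaction was 0.50 for CHLH at its brighter probe set (95% interval −0.11 to 1.12) and 0.16 for PORB (−0.081 to 0.40). These were the leaf differences called in WT alone. The dimmer CHLH probe set, whose leaf difference was called in both genotypes, gave −0.19. So the leaf difference of neither gene was shown to differ between genotypes. Its interval was widest for PORA, at −0.28 (−1.23 to 0.66).

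The spread among L3 arrays was wide for some of these genes. The median SD on the log2 scale over the 7 genes was 0.22 in OE_L3 and 0.22 in WT_L3, against 0.11 and 0.14 over all probe sets tested, and was 0.11 in OE_L6 and 0.19 in WT_L6, against 0.12 in each. A leaf score gives the position of each array along the L6 minus L3 axis of the other genotype over all probe sets tested, scaled to 0 at that mean of L3 and 1 at that of L6. L6 arrays scored 0.88 to 1.11. OE_L3 scored 0.25, 0.21 and −0.22, and WT_L3 scored 0.38, −0.29 and −0.27, so 3 L3 arrays lie apart, on the side of L6. PORA and the dimmer CHLH probe set were highest among L3 arrays on those 3, as were PPOX1 and CHLD. CHLI ran the other way, with 108, 125 and 109 on those 3 and 152, 161 and 139 on the other L3 arrays.

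Markers of dividing cells moved with the same arrays. Summed over the 6 measured genes, their signal was 2285 to 3079 in OE_L6, 1663 to 3310 in WT_L6, 1183, 1458 and 419 in OE_L3 and 2134, 445 and 460 in WT_L3. CYCB2-2, a mitotic cyclin, read 113, 171 and 9.29 in OE_L3 and 305, 8.60 and 8.76 in WT_L3. None of the 6 was listed at 0, and 1 was under the filter level. Of the 5 tested, 0 were called between the leaves in OE, where 42.1% of all probe sets were, and 4 were higher in WT_L6, as were 23.9%. In OE, 4 of the 5 had an unadjusted p under 0.05, as had 17896 of the 34316 probe sets tested. The median difference of the 5 was 1.75 in OE, against 2.37 in WT. None was called for the interaction, against 0.00874% of all probe sets. Their part in the leaf differences of the chlorophyll genes was not tested.

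Without the 3 L3 arrays that scored above 0, the leaf difference was larger for PORA, at 1.37 in OE and 1.46 in WT, and for PPOX1, at 1.48 in OE and 1.31 in WT. Both genes were highest among L3 arrays on those 3, so a larger difference follows from leaving these arrays out. That setting was added after the data were seen, and it leaves 1 array in OE_L3, which is assumed to vary like the other groups. The counts were then 4 of 7 in OE and 5 of 7 in WT, with CHLH no longer called in WT (adjusted p = 0.0510).

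**Figure D3:**
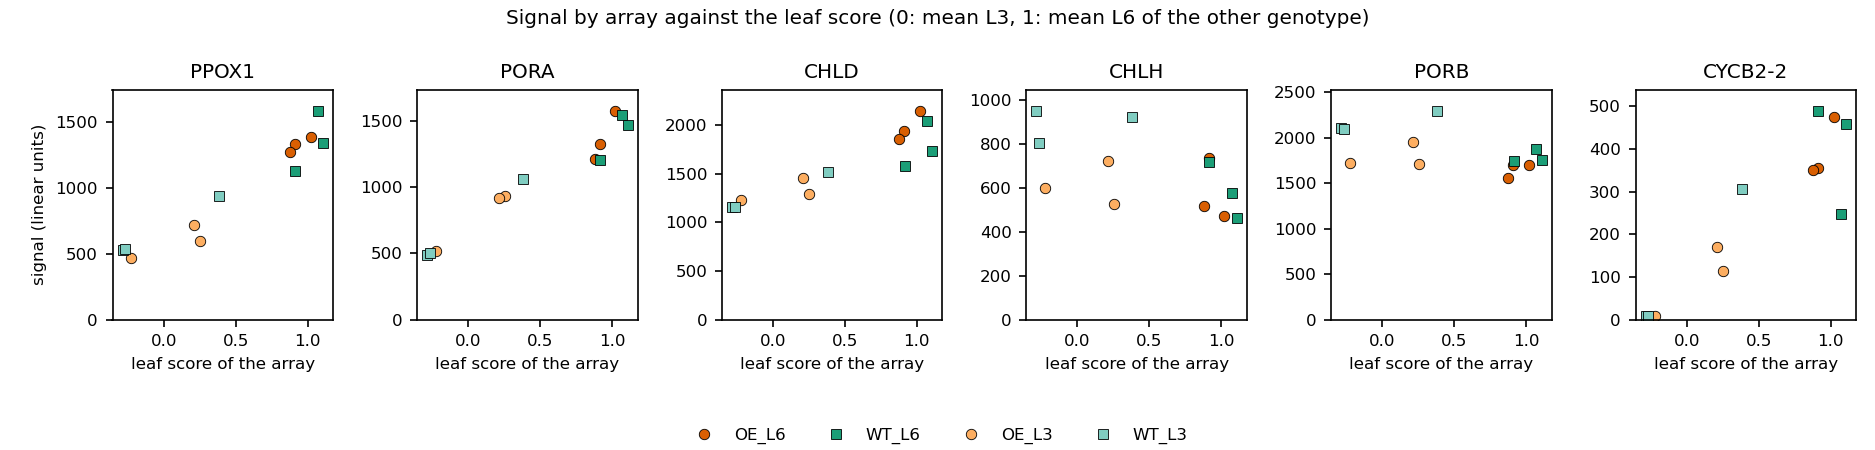
Signal (linear units, axes from 0) of 5 chlorophyll synthesis genes and the cyclin CYCB2-2 against the leaf score of the array, circles for OE and squares for WT. PPOX1, PORA and CYCB2-2 are higher on the L3 arrays with scores of 0.21 to 0.38 than on those below 0, and CHLH and PORB show no such split. CHLI, which is not drawn, ran the other way.

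Among themselves, the 7 genes fell at different distances, measured as the root mean square difference of log2 profiles over the 12 arrays, each centred on its own mean. CHLD and CHLG were the closest pair, at 0.124, and PPOX1 and PORA followed in likeness at 0.201. CHLH stood farthest from PORA (0.829) and PPOX1 (0.811). All 12 points share the leaf difference and the split among L3 arrays, so this is a description of the profiles.

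The same measure over 2164 other named genes gave those most like each member. For CHLD these were GSA, glutamate-1-semialdehyde aminotransferase, at 0.059, and BP-73 at 0.076. For CHLG they were AL1 (0.084) and bas1 (0.106), and for PPOX1 OsTLP14 (0.098) and HPT2 (0.123). CYCP3-1 (0.104) and NEK6 (0.105) were nearest to PORA. For CHLH they were CHLP (0.166) and HSF24 (0.184), for PORB CIN7 (0.096) and osysl10 (0.105), and for CHLI BGLU19 (0.097) and CML28 (0.109). These distances are read against the spread of each member's own profile, which was 0.61 for PPOX1, 0.60 for PORA, 0.37 for CHLG, 0.34 for CHLH, 0.30 for CHLD, 0.17 for CHLI and 0.16 for PORB.

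The early steps, which build the porphyrin ring from glutamate, were measured for 4 genes, from 34 symbols and synonyms tried. All 4 were higher in OE_L6 than in OE_L3, as were 18.9% of all probe sets, and 3 were higher in WT_L6 than in WT_L3, as were 23.9%. HEMB, which condenses aminolevulinic acid, averaged 1189.7 ± 212 in OE_L6 and 489.7 ± 179 in OE_L3, and 1118 ± 223 in WT_L6 and 429.6 ± 241 in WT_L3 (SD, n = 3 each). Its leaf difference was 1.31 ± 0.36 in OE and 1.45 ± 0.36 in WT (SE, limma adjusted p = 0.0172 and 0.00945). The OE call was lost without OE_L3 replicate 3 (adjusted p = 0.0671) or OE_L6 replicate 2 (0.0607). Its probe set ends in _s_at, and its highest L3 arrays are the same 3.

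GSA, which makes aminolevulinic acid, was higher in L6 by 0.55 in OE and 0.41 in WT (limma adjusted p = 0.0122 and 0.0345). The WT call was lost with the groups compared fitted alone (limma adjusted p = 0.0609). The dimmer GSA probe set, left out by the filter, was lower in L6 in 6 of 6 plants. It averaged 28.2 in OE_L6 and 36.2 in OE_L3, and 30.6 in WT_L6 and 46.8 in WT_L3. UROS, uroporphyrinogen III synthase, was higher by 0.69 in OE and 0.58 in WT (adjusted p = 0.0122 and 0.0219). GLUTR, glutamyl-tRNA reductase and the regulated entry step, was higher by 0.67 in OE (adjusted p = 0.0101), and its WT difference was 0.35 (adjusted p = 0.105). With the plant as a replicate block only HEMB of the 4 stayed called in WT, and the adjusted p of GSA and UROS were 0.0597 and 0.0546. The WT count was also 1 when replicate 2 or 3 of WT_L3 or of WT_L6 was left out. None of the 4 was called between OE and WT, where 0.102% of all probe sets were called in L6 and 0.119% in L3. For the interaction none was called either, against 0.00874% of all probe sets. At such small shares this says little about the 4 genes.

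On the haem and bilin branch, HO2 and HO1, named as haem oxygenases, were measured. HO2 averaged 870.4 ± 109.6 in OE_L6 and 473 ± 55.5 in OE_L3, and 854 ± 92.7 in WT_L6 and 467 ± 96.1 in WT_L3 (SD, n = 3 each), a leaf difference of 0.86 in each genotype (limma adjusted p = 0.00219 and 0.00189). HO1, whose product goes to the phytochrome chromophore, was not called, at −0.13 in OE and 0.0087 in WT.

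The breakdown genes ran the other way at 2 of 4 measured. SGR, the stay-green magnesium dechelatase that starts chlorophyll loss, averaged 102 ± 8.84 in OE_L6 and 246 ± 47.4 in OE_L3, and 89.5 ± 20.4 in WT_L6 and 245 ± 8.31 in WT_L3 (SD, n = 3 each). Its leaf difference was −1.14 ± 0.16 in OE and −1.33 ± 0.16 in WT (SE, limma adjusted p = 0.000569 and 0.000225), and its dimmer probe set gave −0.97 and −1.13. RCCR1, red chlorophyll catabolite reductase, averaged 491 ± 124 in OE_L6 and 1476 ± 133 in OE_L3, and 449 ± 36.9 in WT_L6 and 1461 ± 139 in WT_L3. Its leaf difference was −1.58 in OE and −1.66 in WT (adjusted p = 9.38e-05 and 5.67e-05), 2.99-fold and 3.17-fold lower in L6. Both were lower in L6 in 6 of 6 plants, and 23.2% of all probe sets were lower in OE_L6 and 23.9% in WT_L6.

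NYC1 and NOL, the subunits of chlorophyll b reductase, did not follow SGR. NYC1 was not called (−0.25 in OE and −0.28 in WT), and NOL differed by 0.37 in OE (limma adjusted p = 0.07). NOL was higher in WT_L6 by 0.43 (limma adjusted p = 0.0409, and 0.0711 with the plant as a replicate block), a call also lost in 6 of the 12 fits without 1 array. The call was lost too without a filter, with the groups alone and with the random replicate block (limma adjusted p = 0.0507 to 0.0649). The dimmer NOL probe set gave 0.50 in WT (adjusted p = 0.0525). None of the breakdown genes was called between OE and WT, where 0.102% of all probe sets were called in L6 and 0.119% in L3. At such small shares this says little about them.

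**Figure D4:**
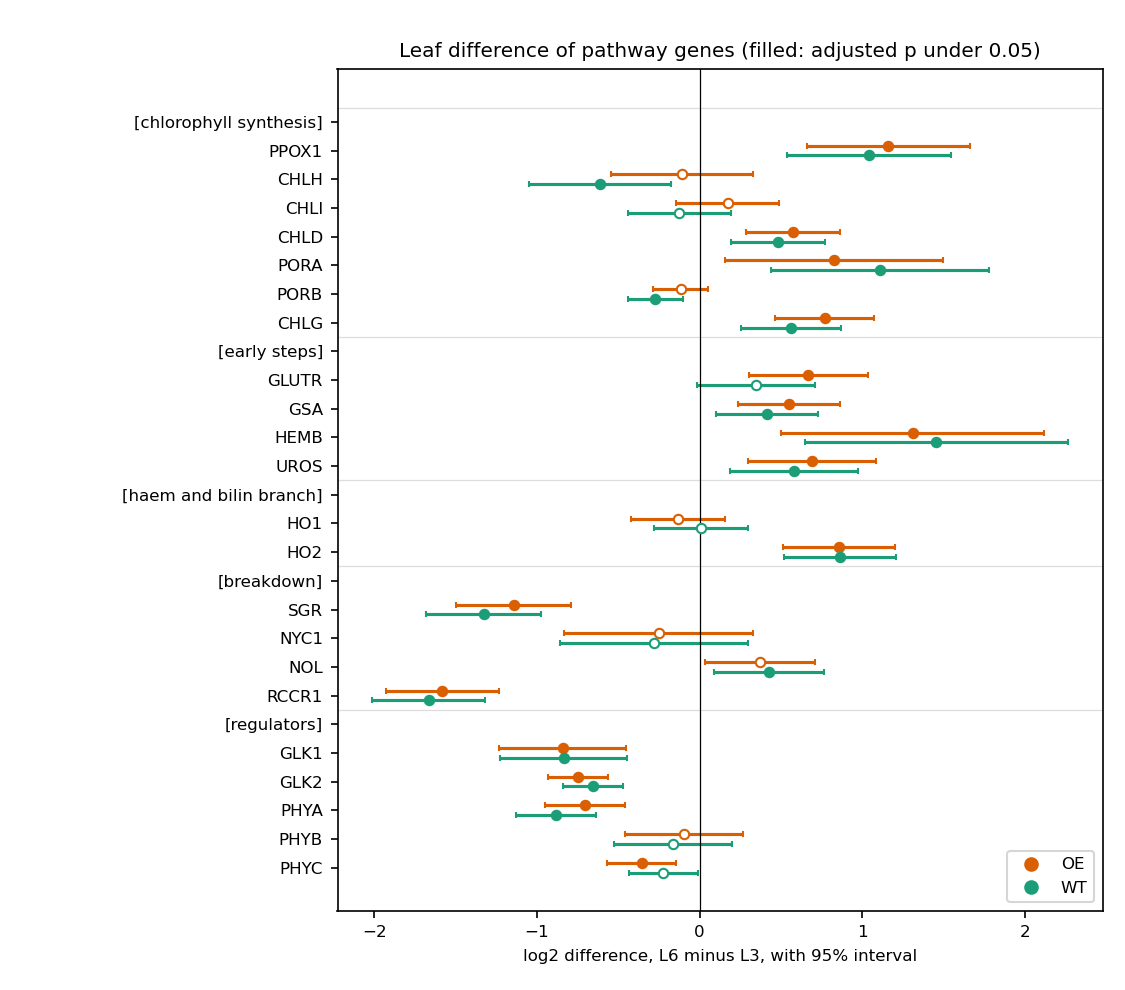
Leaf difference (L6 minus L3, log2 scale, with 95% intervals) of the 7 synthesis genes and 15 measured neighbours by list, with OE above WT in each row and points filled where the limma adjusted p is under 0.05. Early steps lie right of 0, and SGR, RCCR1, GLK1, GLK2 and PHYA lie left of 0 in both genotypes.

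None of the 5 measured regulators of the pathway was higher in L6. GLK1 and GLK2, transcription factors that activate chlorophyll genes in several plants, were both lower in L6. GLK1 averaged 257 ± 26.1 in OE_L6 and 475 ± 65.1 in OE_L3, and 330.5 ± 82 in WT_L6 and 596 ± 89.4 in WT_L3 (SD, n = 3 each), a difference of −0.84 in each genotype (limma adjusted p = 0.00464 in OE and 0.0042 in WT). GLK2 fell by 0.75 in OE and by 0.65 in WT at its brightest probe set (adjusted p = 0.000172 and 0.000301), but its next probe set gave 0.11 and −0.18, neither called.

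Of the phytochromes, the red and far-red light receptors, PHYA was lower in L6, with −0.70 in OE and −0.88 in WT (limma adjusted p = 0.00107 and 0.000282). PHYC was lower in OE_L6 (−0.36, adjusted p = 0.0149, and 0.0531 without OE_L3 replicate 3 or 0.0541 without OE_L6 replicate 2), with −0.22 in WT (adjusted p = 0.0765), and PHYB was not called. In all, 4 of the 5 measured regulators were lower in L6 in OE and 3 in WT, as were 23.2% and 23.9% of all probe sets. None of the 5 was called between OE and WT, where 0.102% of all probe sets were called in L6 and 0.119% in L3. Among the 5 regulators PHYA had the lowest unadjusted limma p, 0.00873 in L6. There it averaged 380.2 ± 43.5 in OE and 294 ± 37.2 in WT (SD, n = 3 each, limma adjusted p = 0.549). Its L6 arrays did not overlap, and 5.92% of all probe sets were likewise higher in OE_L6. In L3, PHYA, PHYB and PHYC were higher in OE with no overlap of the arrays, as were 1535 of the 34316 probe sets. Of the 5 regulators, 0 had an unadjusted p under 0.05 in L3.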

How the data were processed

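Biotin-labelled cRNA of 12 leaves was read on Affymetrix rice chips, per the labels. The deposited table holds 1 linear intensity per probe set and array. How the authors scanned, summarized and scaled it is not given in the sources used here. No further normalization was applied. Arrays give no read depth, so the number of arrays limits the precision.

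The 187 control probe sets and probe sets with a mean log2(intensity + 16) under the 40th percentile were left out. R 4.3.3 with limma 3.58.1 (lmFit, eBayes with trend) fitted the 4 groups together, two-sided, with Benjamini-Hochberg adjustment over 34316 probe sets. Python 3.11.15, pandas 2.3.3 and matplotlib 3.10.9 did the rest. The fit was tested on simulated data.

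Names came from the platform annotation and the RefSeq gene table of assembly ASM3414082v1. It gave 1 gene for 22436 probe sets, several for 95 and none for 34850, which are unnamed here. The symbol FC1 matched an alcohol dehydrogenase and was left out of the haem list.

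The genes, neighbouring lists and markers were chosen with earlier results of these data known. Named genes are all measured members of these lists, and for each synthesis gene the 2 named genes of the most like profile. Both leaves of a replicate carry the same plant name in WT and line name in OE. They were taken as paired by plant, which is an assumption for OE. Deviations from the group means correlated between the leaves of a plant at 0.10, 0.14 and 0.20 in OE and −0.24, −0.36 and −0.05 in WT. Alternatives were quantile normalization, pseudocounts of 1 and 64, other filters, no trend, separate fits, fixed and random replicate blocks, other probe sets and leaving out each array.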

Additional observations from a re-analysis of the deposited data

How the results depend on the processing

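With the plant as a replicate block, 3 chlorophyll synthesis genes were called between the leaves in OE and 5 in WT, against 4 and 6 without it. It changed no call other than those given beside the results. No chlorophyll synthesis gene was called between OE and WT, or for the interaction, under any alternative run. Leaving out each array gave 3 to 4 called between the leaves in OE and 3 to 6 in WT, the lowest without WT_L3 replicate 2. The PORA call in OE was lost in 15 of 22 settings, with an adjusted p of up to 0.183.

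Some differences changed sign, and all but CHLH between the leaves in WT and GLK2 between the leaves in OE were uncalled as reported. With the dimmer probe set, the called WT difference of CHLH became a call in the opposite direction, and CHLH gave 0.078 in L6 and 0.27 in L3 for OE minus WT, 1.18 in OE and 1.37 in WT for L6 minus L3, and −0.19 for the interaction, and GLK2 gave 0.11 for L6 minus L3 in OE. Without the 3 L3 arrays that scored above 0, CHLI gave 0.019 for OE minus WT in L3 and −0.056 for L6 minus L3 in OE, where HO1 gave 0.038. With each array left out, OE minus WT in L3 ran from −0.0085 to 0.19 for CHLD, −0.21 to 0.041 for CHLI and −0.27 to 0.14 for PPOX1. In L6 it ran from −0.032 to 0.21 for CHLG, −0.14 to 0.047 for PORA, −0.13 to 0.11 for PPOX1 and −0.22 to 0.12 for CHLH. L6 minus L3 ran from −0.29 to 0.019 for CHLH, −0.43 to 0.059 for NYC1 and −0.22 to 0.094 for PHYB in OE, and from −0.11 to 0.14 for HO1 in WT. The interaction ran from −0.036 to 0.19 for CHLD and −0.15 to 0.26 for PPOX1. The cause was not tested.

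Counts over all probe sets ran from 12 to 62 for OE against WT in L3 (41 as reported), 20 to 54 in L6 (35), 8902 to 16435 between the leaves in OE (14445), 10305 to 18399 in WT (16403) and 0 to 8 for the interaction (3). In L3 it was 62 without a filter, 25 with the 60th percentile filter, 12 with the groups alone, 25 without the 3 L3 arrays, and 22 to 25 when replicate 1 or 2 of OE_L3, or replicate 2 of WT_L3, was dropped. In L6 it was 22 with the 60th percentile filter, 54 without the 3 L3 arrays, and 20 to 22 without OE_L6 replicate 1, WT_L6 replicate 2 or WT_L6 replicate 3. For the leaves it was 8902 without OE_L3 replicate 3, and 10665 and 10305 without WT_L3 replicates 2 and 3. GLUTR was called in WT with quantile normalization (0.41, adjusted p = 0.0393).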
